A study of Mus musculus with 12 samples.

Results

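The comparison described here set glomeruli that lacked both receptors of tumour necrosis factor (TNF), labelled Tnfr1,2-/-, against glomeruli that lacked TNF receptor 2 alone, labelled Tnfr2-/-. It reads the effect of losing Tnfr1 where Tnfr2 is already absent. It used 6 of the 12 arrays of the series, 3 per genotype, picked by their labelled genotype, and 18193 genes were tested, each through the probe set that was brightest on average over all arrays. The other 6 arrays, of Tnfr1-/- and wildtype glomeruli, give the effect of losing Tnfr1 where Tnfr2 is present, and they share no array with the first comparison. Glomeruli came from male mice 6 to 8 weeks old that had been perfused with paramagnetic beads. All groups were treated alike: 5000 intact glomeruli per preparation were serum starved, and murine TNF was then added at 50 ng/ml and left on for 12 hours, so every genotype was exposed to TNF, and unstimulated glomeruli were not analysed here. Wildtype mice were C57BL/6J, and the mutants carried germline deletions from the strains B6.129-Tnfrsf1a tm1Mak and B6.129-Tnfrsf1b tm1Mwm, which were crossed to give the double mutant. The deletions affect every cell of the animal. Each array was made from an independent RNA preparation, and the number of animals behind a preparation is not given in the sources used here.

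TNF is bound by a receptor with a death domain, TNFR1 (encoded by Tnfrsf1a), which most cells carry, and by TNFR2 (encoded by Tnfrsf1b), which is more restricted and has no death domain. Ligand binding to TNFR1 assembles a complex of adaptor, ubiquitin ligase and kinase proteins that releases nuclear factor κB (NF-κB) from its inhibitors, and NF-κB then switches on chemokines, adhesion molecules and its own inhibitors. In the glomerulus, the capillary tuft in which the kidney filters blood, TNF acts on endothelial cells, on mesangial cells and on podocytes and takes part in leukocyte recruitment during glomerulonephritis.

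The deposited values are log2 signals, so that a difference of 1 is a 2-fold change, and the array medians lay between 5.59 and 5.64. A gene was called when its limma test across all 4 genotypes gave a Benjamini-Hochberg adjusted p under 0.05 and the change was at least 1.5-fold. Arrays fell into 2 sets by the difference of the β-actin control probe sets from the 3′ and the 5′ end of the transcript. It was between 0.667 and 1.005 on 7 arrays and between 1.82 and 2.30 on 5 arrays. The same difference in spiked-in control transcripts, which are not glomerular RNA, ran from 1.42 to 2.32 and from 2.73 to 3.83 in these sets. What set the arrays apart was not tested. The second set held replicates 2 and 3 of Tnfr1,2-/-, replicate 3 of Tnfr2-/-, and replicate 3 of both other genotypes. The main axis of variation among the 6 compared arrays (first principal component, 55.4% of the variance) divided them by set. It ran from −38.7 to −21.0 in the first set and from 4.66 to 58.4 in the second. Pairs of the same set correlated at 0.978 to 0.993 and pairs of the same genotype at 0.967 to 0.993. The main fit had no term for the set. None of 13 podocyte markers had group means under the array median in both genotypes, and neither had any of 15 mesangial and smooth muscle or 8 parietal markers. This was so for 9 of 16 tubular, 3 of 16 macrophage and 1 of 16 endothelial markers.

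Glomeruli that lacked both receptors expressed far less Ccl2, Cfb, Vcam1 and Icam1 under TNF than glomeruli that lacked Tnfr2 alone (50.0-fold, 39.0-fold, 24.8-fold and 16.6-fold less), and 16.9-fold more Vip. Of 18193 genes, 190 were called lower in Tnfr1,2-/- than in Tnfr2-/- glomeruli (1.04% of the genes tested) and 63 were called higher (0.346%). The median change was 2.94-fold among the genes called lower and 2.46-fold among those called higher, while the median log2 difference over all genes was 0.01. In 2158 genes (11.9% of those tested) the Tnfr1,2-/- arrays all lay on the same side of the Tnfr2-/- arrays, and all 253 called genes were among them. For 45 of the 190 lower genes the Tnfr1,2-/- mean lay under the array median, where a fold change may be understated. No background level was measured.

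**Figure D1:**
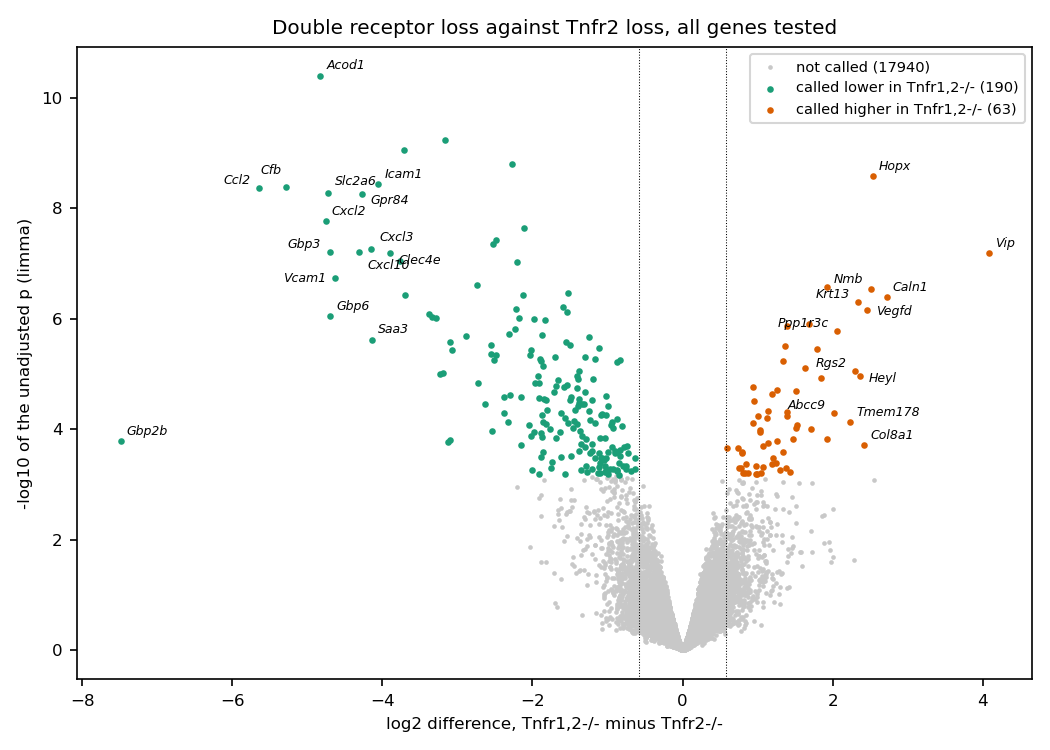
Log2 difference (Tnfr1,2-/- minus Tnfr2-/-, x axis) against −log10 of the unadjusted limma p (y axis) for 18193 genes, 1 point each; dotted lines mark a 1.5-fold change. The 190 genes called lower reach a log2 difference of −7.49 (Gbp2b), and the 63 called higher reach 4.08 (Vip).

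The number of genes called depended on the arrays used. Leaving out a single array left between 119 and 197 genes called lower and between 28 and 84 called higher. Without Tnfr2-/- replicate 1 the counts were 121 and 36, without Tnfr2-/- replicate 2 they were 119 and 28, without Tnfr1,2-/- replicate 2 they were 128 and 39, and without Tnfr1,2-/- replicate 3 they were 154 and 41. Of the 190 lower genes, 104 kept their call whichever of the 12 arrays was left out, as did 26 of the 63 higher genes. With the array set as a term in the model 294 genes were called lower and 110 higher. The direction of the 253 called genes within an array set was fixed in advance, because their arrays did not overlap between the genotypes. Within the first array set (1 Tnfr1,2-/- array against 2 Tnfr2-/- arrays) 186 of the 190 lower genes and all 63 higher genes differed by at least 1.5-fold. Within the second set (2 arrays against 1) 189 of 190 and 62 of 63 passed that size. The genes were called on these same arrays, so the counts are a description and not a separate test. The median log2 difference of the lower genes was −1.65 in the first set and −1.48 in the second. For the higher genes it was 1.20 and 1.26. Contrasts within a set came from a single fit of all 12 arrays, which pooled the spread over the genotypes and over both sets. Neither set was therefore tested on its own.

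Probe sets of a gene did not always give the same size. Of the 138 called genes with over 1 probe set, 20 had probe sets of opposite sign. When the probe sets of each gene were averaged instead of taking the brightest, 8 of 85 named called genes lost the call, namely Adam17, Adamts9, Birc3, Csf1, Fbln5, Npr3, Steap4 and Tapbp (adjusted p from 0.0661 to 0.751), all in the same direction.

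The targeted genes were read first. Tnfrsf1a, on chromosome 6, measured 9.61, 9.14 and 9.11 in Tnfr1,2-/- glomeruli and 10.77, 10.82 and 10.60 in Tnfr2-/- glomeruli on the log2 scale. All Tnfr1,2-/- arrays were below all Tnfr2-/- arrays, by 1.44 (SE 0.24) or 2.72-fold (adjusted p = 0.00978), yet the signal stayed far above the array median. A single probe set reads this gene, and whether it lies outside the deleted part is not given in the sources used here. The call was lost without Tnfr1,2-/- replicate 2 or without Tnfr2-/- replicate 2, where the adjusted p was 0.0548 and 0.0578. Tnfrsf1b, which both genotypes lack, measured 5.51, 5.37 and 5.57 in Tnfr1,2-/- glomeruli and 5.66, 4.95 and 5.38 in Tnfr2-/- glomeruli. These arrays overlapped (difference 0.15, SE 0.33, adjusted p = 0.917) and lay below the wildtype arrays, which ranged from 7.41 to 7.77. A second Tnfrsf1b probe set read 6.05, 6.21 and 6.40 in Tnfr1,2-/- and 5.74, 5.73 and 6.05 in Tnfr2-/- glomeruli. On it wildtype arrays read 6.29, 6.64 and 5.99, so Tnfr1,2-/- and wildtype arrays overlapped there. Rab6b, a small GTPase of vesicle transport, measured 7.76, 7.84 and 7.99 against 8.14, 8.15 and 7.97, a difference of −0.22 (SE 0.18, adjusted p = 0.772), while Tnfr1-/- arrays read 9.82, 10.28 and 9.77.

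**Figure D2:**
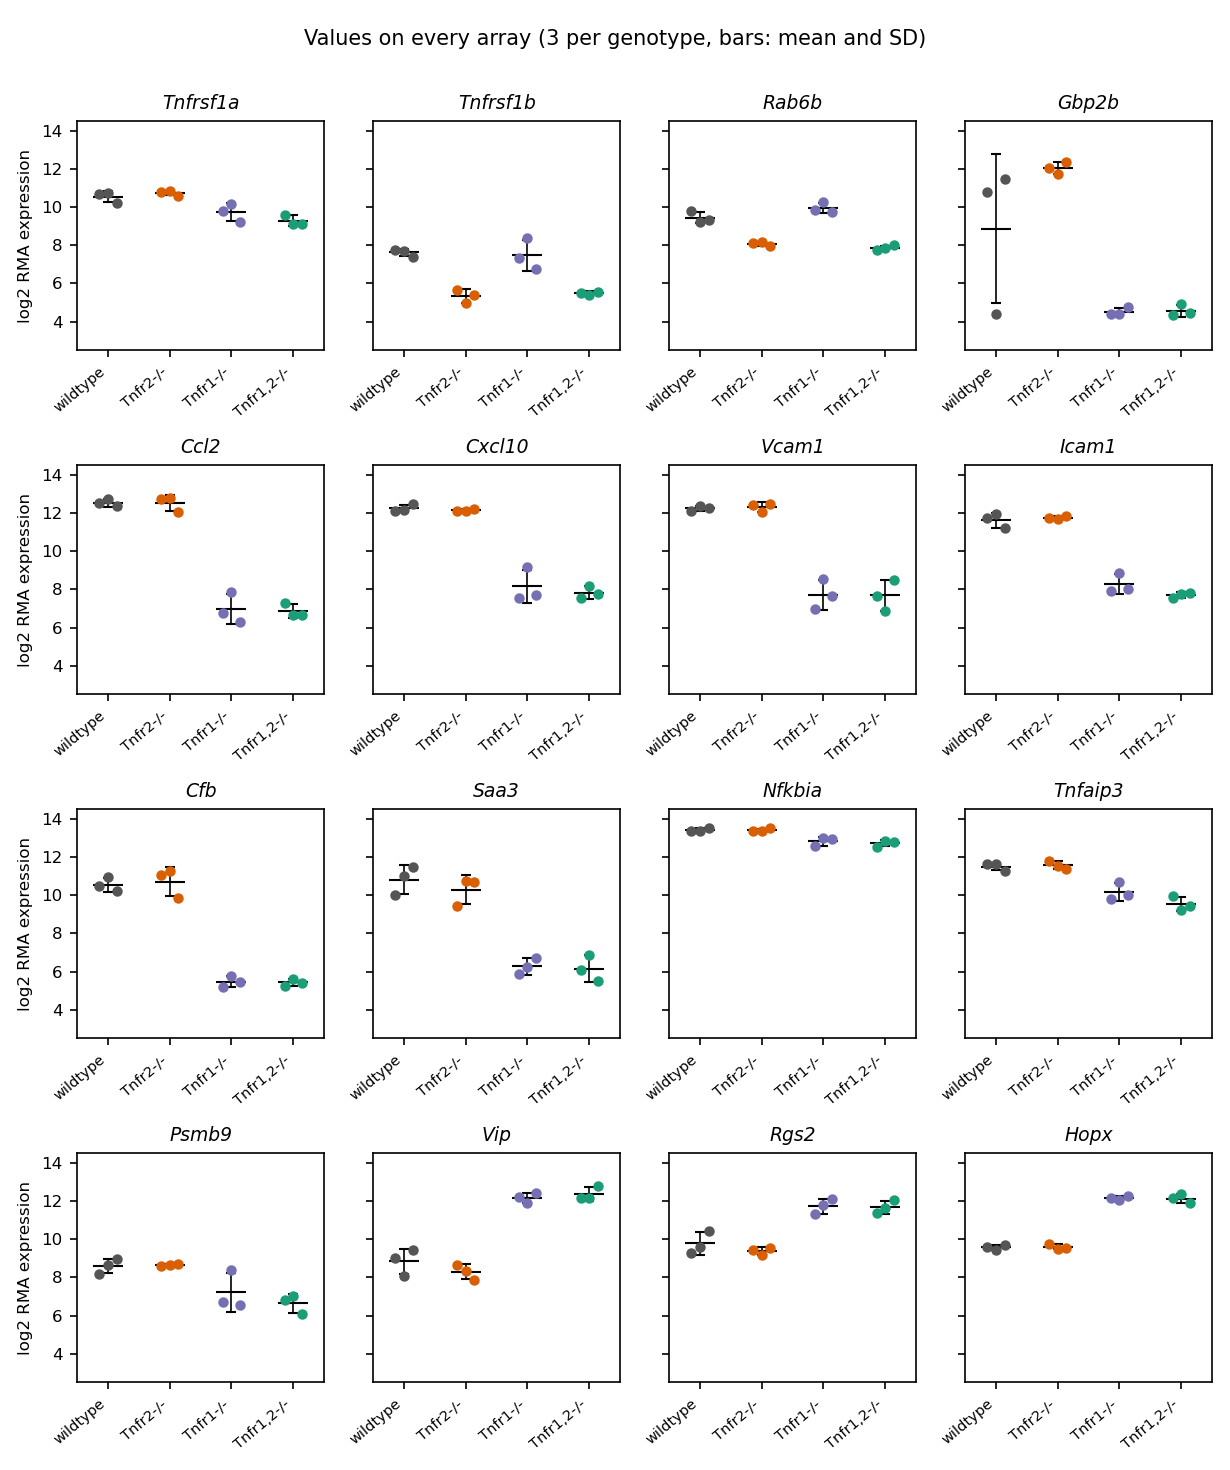
Log2 expression (y axis) of 16 genes on every array, 3 points per genotype, with the mean and SD as bars. Tnfr1,2-/- and Tnfr1-/- arrays lie together and apart from Tnfr2-/- and wildtype arrays for the inflammatory genes and for Vip, Rgs2 and Hopx, whereas Tnfrsf1b and Rab6b divide by the presence of Tnfr2; 1 wildtype array reads Gbp2b at the mutant level.

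Chemokines, the secreted proteins that direct leukocytes, held some of the largest decreases. Of 18 CC chemokine ligands 4 were called lower (22.2%), and of 15 CXC and CX3C ligands 7 (46.7%), with none higher in either list. Over all genes 1.04% were called lower and 0.346% higher, the shares beside which the count of every list below is to be read. The lists were chosen with earlier results of these data known. Ccl2, which attracts monocytes, measured 7.30, 6.67 and 6.63 in Tnfr1,2-/- glomeruli and 12.72, 12.77 and 12.04 in Tnfr2-/- glomeruli. The difference was −5.64 (SE 0.35), a 50.0-fold lower signal (adjusted p = 9.92e-06). The other CC ligands that fell were Ccl5, which attracts T cells and monocytes (difference −3.33), Ccl7, a further ligand for monocytes (−3.28), and Ccl9 (−1.98). The call of Ccl9 was lost without Tnfr1,2-/- replicate 2, Tnfr2-/- replicate 1 or Tnfr2-/- replicate 2 (adjusted p from 0.0523 to 0.0801). The median log2 difference was −0.32 over the CC list and −1.09 over the CXC and CX3C list, against 0.01 over all genes.

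Among the CXC ligands, Cxcl2 and Cxcl3 attract neutrophils, and Cxcl9 and Cxcl10 attract activated T cells. Cxcl2 measured 6.15, 7.03 and 7.26 in Tnfr1,2-/- glomeruli against 11.72, 11.53 and 11.46, so that no Tnfr1,2-/- array came near a Tnfr2-/- array (difference −4.76, SE 0.34, adjusted p = 2.82e-05). Cxcl10 measured 7.55, 8.19 and 7.76 against 12.11, 12.09 and 12.23 (difference −4.31, SE 0.35, adjusted p = 6.19e-05). Cxcl3 measured 3.37, 3.21 and 3.84 against 7.99, 7.56 and 7.33. The Tnfr1,2-/- arrays were under the array median, so its 17.8-fold decrease may be a low estimate. Cxcl9 fell 13.6-fold, and its second probe set gave a log2 difference of −0.70.

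The promoters of Cxcl2, Cxcl3 and Cxcl10 are shown because, among the 15 largest decreases, they are those found to carry GGGNNNTTCC, letters of an NF-κB site. Other forms of the site were not searched for, so a promoter without these letters may still hold one. Promoters are RefSeq sequences of the mouse build GRCm38.p6, 250 bases before to 50 after a transcription start, written 5′ to 3′ along the gene. The table held promoters of 140 of the 190 genes called lower, of 48 of the 63 called higher, and of 11 of the 15 largest decreases. Capitals mark GGGNNNTTCC on either strand.
Cxcl2, chr5:90903649-90903948, plus strand: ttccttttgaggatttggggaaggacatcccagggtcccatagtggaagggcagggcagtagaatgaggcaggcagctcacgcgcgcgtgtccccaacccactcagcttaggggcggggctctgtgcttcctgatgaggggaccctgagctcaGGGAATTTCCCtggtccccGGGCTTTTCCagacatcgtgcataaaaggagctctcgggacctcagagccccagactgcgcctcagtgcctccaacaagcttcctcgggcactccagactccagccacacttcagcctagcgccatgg
Cxcl3, chr5:90785851-90786150, plus strand: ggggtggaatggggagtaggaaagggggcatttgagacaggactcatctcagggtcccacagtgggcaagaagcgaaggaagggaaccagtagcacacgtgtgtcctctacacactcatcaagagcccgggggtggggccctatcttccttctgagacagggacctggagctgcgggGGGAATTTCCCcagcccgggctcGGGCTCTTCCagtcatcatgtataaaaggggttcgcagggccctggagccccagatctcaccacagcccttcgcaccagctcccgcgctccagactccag
Cxcl10, chr5:92348840-92349139, minus strand: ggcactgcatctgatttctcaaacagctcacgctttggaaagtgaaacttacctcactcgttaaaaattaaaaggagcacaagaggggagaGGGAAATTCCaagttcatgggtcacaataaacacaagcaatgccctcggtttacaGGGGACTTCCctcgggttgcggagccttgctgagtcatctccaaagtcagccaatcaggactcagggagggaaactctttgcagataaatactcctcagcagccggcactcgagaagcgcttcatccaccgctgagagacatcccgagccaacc

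In Cxcl2 the matches began 97, 96 and 78 bases before the start, and in Cxcl3 they began 73, 72 and 50 bases before it. In each of these promoters the first and second match overlap on opposite strands, and the overlapping letters were the same, GGGAATTTCC and GGAATTTCCC. In Cxcl10 the matches, GGGAAATTCC and GGGGACTTCC, began 159 and 104 bases before the start. Of all 32851 promoters in the table, 5.56% held this motif, and of the 18109 promoters of genes tested 5.81% did. It was found in 31 of the 173 promoters of genes called lower (17.9%) and in 2 of the 74 promoters of genes called higher (2.70%). Among the genes called lower that carried it were Nfkbia, Nfkbie, Tnfaip3, Tnip1, Tifa, Tlr2, Csf1, Cxcl1 and Gbp2, a selection named after their values were seen. The AP-1 motif TGANTCA, which is its own reverse complement, was in 7.81% of all promoters and in 6.38% of promoters of genes tested. It was in 22 of those 173 (12.7%) and in 5 of those 74 (6.76%). A match of letters is not a measured binding site.

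Adhesion molecules let leukocytes hold to the endothelium, and 3 of the 16 measured were called lower. Vcam1, the ligand of the integrin VLA-4, measured 7.65, 6.89 and 8.50 in Tnfr1,2-/- glomeruli and 12.43, 12.03 and 12.48 in Tnfr2-/- glomeruli (difference −4.63, SE 0.41, adjusted p = 0.000152). Its 3 probe sets gave differences from −4.87 to −4.45. Icam1, the ligand of β2 integrins, measured 7.53, 7.75 and 7.82 against 11.76, 11.67 and 11.84, with a spread inside each genotype far smaller than the gap (difference −4.05, SE 0.25, adjusted p = 9.92e-06). Madcam1, known from mucosal vessels, fell 8.57-fold, and its call was lost without Tnfr1,2-/- replicate 2 or 3 or Tnfr2-/- replicate 1 or 2 (adjusted p from 0.0751 to 0.0936). The list's median log2 difference was −0.57.

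Complement proteins mark targets for leukocytes, and acute phase proteins rise in inflammation. Of 22 complement genes 4 were called lower (18.2%, against 1.04% of all genes) and none higher. Cfb, factor B of the alternative pathway, measured 5.25, 5.62 and 5.43 in Tnfr1,2-/- glomeruli and 11.04, 11.26 and 9.85 in Tnfr2-/- glomeruli, a 39.0-fold decrease (difference −5.29, SE 0.33, adjusted p = 9.92e-06). The proteases of the classical pathway C1s1 and C1ra fell by 1.20 and 0.93, and Serping1, the inhibitor of those proteases, fell by 2.03 on the log2 scale. The call of C1ra was lost without Tnfr2-/- replicate 2 (adjusted p = 0.0640). The complement list as a whole stayed near 0, with a median of −0.25. Of 23 acute phase and metal handling genes 5 were called lower. Hp, which encodes haptoglobin, fell 13.1-fold and Saa3, a serum amyloid A of inflamed tissue, fell 17.6-fold. Saa3 measured 6.09, 6.89 and 5.50 against 9.43, 10.77 and 10.68. Lbp, which presents bacterial lipopolysaccharide to its receptor, and Steap4, a metal reductase, fell 3.08-fold and 2.30-fold, and the second probe set of Lbp gave a log2 difference of −0.07.

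Inhibitors and regulators that NF-κB itself switches on were among the decreases. Of 21 NF-κB subunits, inhibitors and regulators 7 were called lower and none higher, and the median was −0.96. Traf1, an adaptor that NF-κB itself induces, measured 5.83, 6.27 and 5.66 against 8.40, 8.51 and 8.31 (difference −2.48, SE 0.19, adjusted p = 5.32e-05). Ikbke, a kinase of the pathway, fell 4.69-fold. Tnfaip3, the ubiquitin-editing enzyme A20 that ends TNFR1 signalling, measured 9.96, 9.22 and 9.42 against 11.79, 11.53 and 11.39 and fell 4.11-fold, and Tnip1, its binding partner, fell 3.67-fold. Of 19 genes of the signalling complex at TNFR1 itself 2 were called lower (10.5%), the ubiquitin ligases Birc2 (2.03-fold) and Birc3 (2.54-fold), and the list's median was −0.12. The call of Birc3 was lost when any of 5 of the 6 compared arrays was left out, the exception being Tnfr1,2-/- replicate 3 (adjusted p from 0.0538 to 0.0695).

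Ligands and receptors of the TNF superfamily were called in 7.14% and 8.33% of the members measured, against 1.04% of all genes called lower. Of 14 ligands Tnfsf9, a co-stimulator of T cells, was called lower (1.78-fold, adjusted p = 0.0275), and of 24 receptors Fas, a death receptor, and Cd40, a co-stimulatory receptor, were called lower. Fas measured 6.44, 6.92 and 6.68 in Tnfr1,2-/- glomeruli against 8.30, 8.36 and 8.94, and fell 3.61-fold (adjusted p = 0.00978). Cd40 fell 1.90-fold (adjusted p = 0.0414). The calls of Tnfsf9 and Cd40 were lost without any 1 of the 6 compared arrays, and also without wildtype replicate 2 (Tnfsf9) and without wildtype replicate 1 or Tnfr1-/- replicate 2 (Cd40), with adjusted p up to 0.135 and 0.171. Tnf itself, named after its values were seen, measured 5.30, 5.60 and 6.31 against 6.68, 6.76 and 6.69. These arrays did not overlap, but the difference of −0.97 (SE 0.24) missed the threshold (adjusted p = 0.101).

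**Figure D3:**
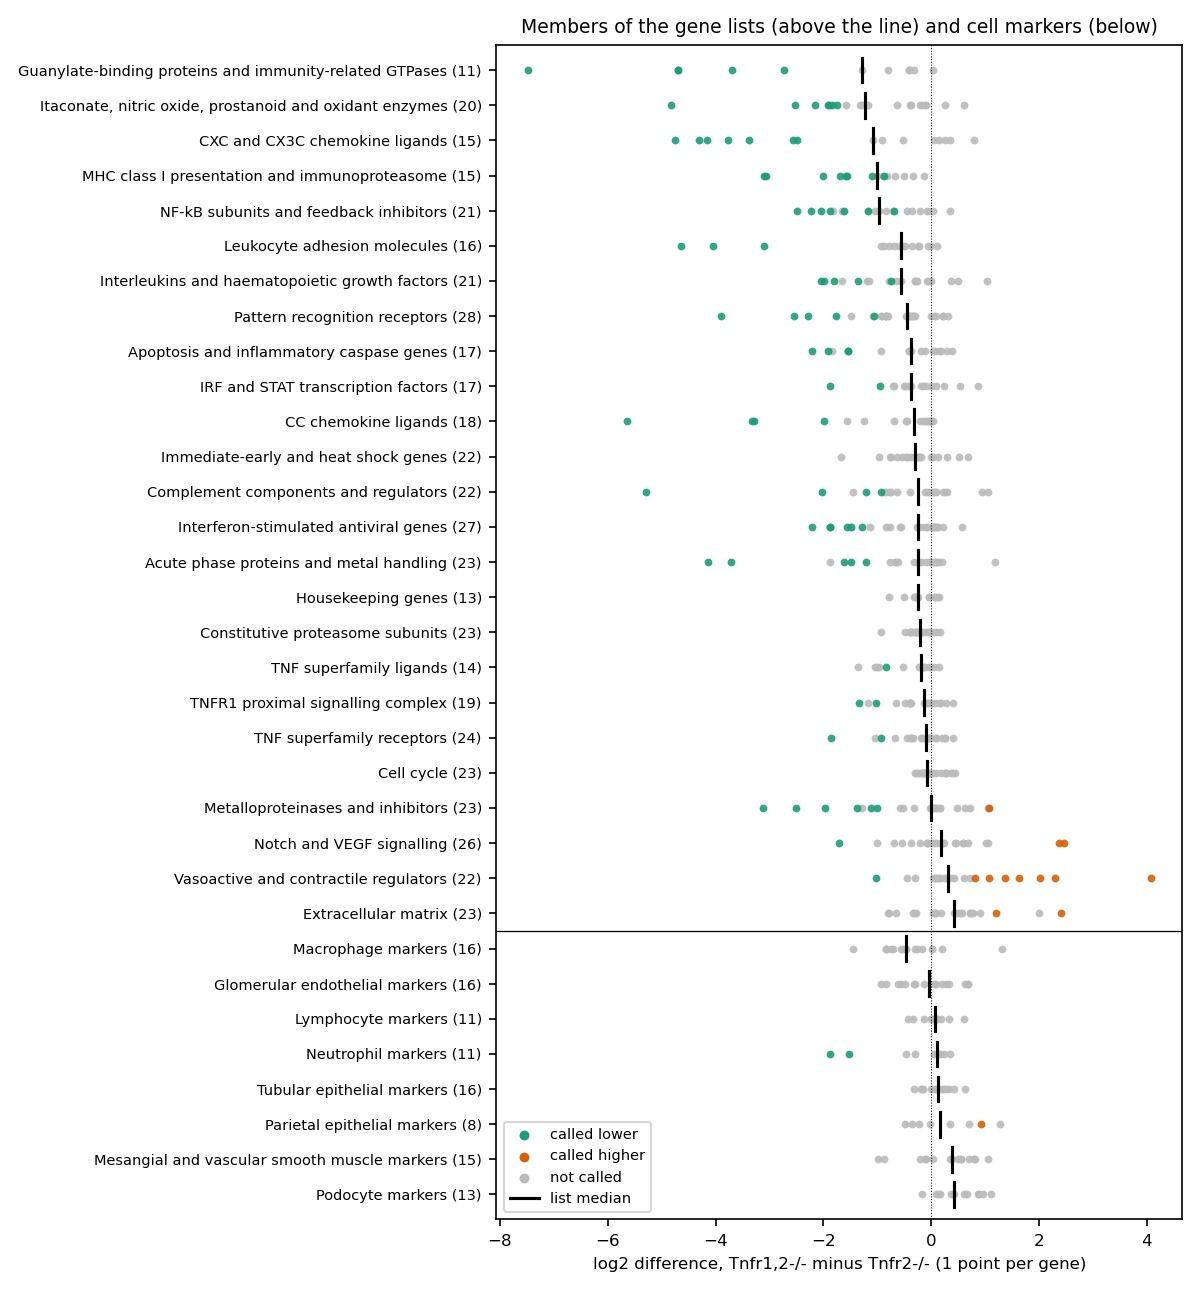
Log2 difference (Tnfr1,2-/- minus Tnfr2-/-, x axis) of every measured member of 25 gene lists and, below the line, 8 cell marker lists (y axis, number measured in parentheses); points are genes and bars list medians. Medians run from −1.28 (guanylate-binding proteins and immunity-related GTPases) to 0.43 (podocyte markers), and 7 of the 22 genes in the vasoactive list are called higher.

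Several genes best known as targets of interferons were among the decreases. Of 11 guanylate-binding proteins and immunity-related GTPases, which defend cells against intracellular pathogens, 5 were called lower, and the list's median was −1.28. Gbp2b measured 4.36, 4.90 and 4.43 in Tnfr1,2-/- glomeruli, under the array median, and 12.06, 11.75 and 12.34 in Tnfr2-/- glomeruli. This was the largest difference of all called genes, −7.49 (SE 1.36, adjusted p = 0.0176). The SD was 0.30 and 0.29 in the compared genotypes but 3.90 in wildtype glomeruli, which enter the shared estimate of spread. Wildtype replicates 1 and 3 read 10.79 and 11.45, wildtype replicate 2 read 4.39, and all Tnfr1-/- arrays read between 4.38 and 4.77. The call was lost when any of the 6 compared arrays was left out (adjusted p from 0.0527 to 0.0777). Gbp3 measured 5.61, 6.58 and 6.82 against 11.003, 10.82 and 11.30 (26.1-fold lower, adjusted p = 6.19e-05), Gbp6 fell 25.8-fold, Gbp2 fell 13.0-fold and Ifi47 fell 6.64-fold.

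The promoters of Gbp2b and Gbp3 are shown with the letters GAAANNGAAA on either strand in capitals, part of the element through which interferon regulatory factors act.
Gbp2b, chr3:142594597-142594896, plus strand: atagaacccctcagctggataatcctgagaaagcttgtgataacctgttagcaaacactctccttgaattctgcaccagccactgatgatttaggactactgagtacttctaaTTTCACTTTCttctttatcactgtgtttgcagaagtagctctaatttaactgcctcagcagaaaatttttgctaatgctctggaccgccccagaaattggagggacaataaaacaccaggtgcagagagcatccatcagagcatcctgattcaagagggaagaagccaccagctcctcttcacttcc
Gbp3, chr3:142559794-142560093, plus strand: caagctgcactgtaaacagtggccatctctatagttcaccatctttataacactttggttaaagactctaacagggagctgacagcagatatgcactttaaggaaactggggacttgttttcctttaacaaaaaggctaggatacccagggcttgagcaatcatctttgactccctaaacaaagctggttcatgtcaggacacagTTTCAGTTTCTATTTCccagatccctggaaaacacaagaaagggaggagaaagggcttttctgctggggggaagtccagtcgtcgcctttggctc

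The match in Gbp2b began 137 bases before the start, and the 2 overlapping matches in Gbp3 began 45 and 39 bases before it. Of the 15 largest decreases 4 held these letters, the others being Cxcl10 (213 bases before the start) and Saa3 (125 bases before). The Cxcl10 promoter, shown above with the NF-κB letters alone in capitals, thus held both motifs. GAAANNGAAA was in 3.44% of all promoters and in 3.03% of promoters of genes tested. It was in 16 of the 173 of genes called lower (9.25%) and in 2 of the 74 of genes called higher (2.70%). It overlapped the NF-κB letters in 3 promoters of the whole table. A second promoter of Gbp3 held no match to either motif.

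Of 27 interferon-stimulated antiviral genes 6 were called lower, with a list median of −0.25. The 4 with the smallest adjusted p were Parp14 (4.65-fold), Parp9 (2.93-fold), Rtp4 (3.66-fold) and Xaf1 (2.80-fold). Irf1, a transcription factor that TNF and interferon both induce, measured 9.98, 9.24 and 9.15 against 11.48, 11.33 and 11.22 and fell 3.69-fold. Cish, a suppressor of cytokine signalling, fell 1.93-fold, and these were the 2 genes called of 17 in the list of interferon regulatory factors and signal transducers. The call of Irf1 was lost without Tnfr1,2-/- replicate 2 or 3 or Tnfr2-/- replicate 1 or 2 (adjusted p from 0.0651 to 0.0734).

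MHC class I molecules show peptides, cut by proteasomes, to T cells. Of 15 genes of class I presentation and the immunoproteasome 8 were called lower, and the largest member value was −0.13, so no member was higher. Psmb8, a catalytic subunit that replaces its constitutive counterpart in the immunoproteasome, measured 7.35, 7.75 and 7.11 against 10.44, 10.57 and 10.49 (8.57-fold lower, adjusted p = 0.000922). Psmb10, another of these subunits, fell 8.37-fold, and Tapbp, which loads peptides onto class I molecules, fell 2.98-fold. Of 23 constitutive proteasome subunits none was called, with a median of −0.21 and a range from −0.93 to 0.16. The smallest adjusted p there was that of Psmd3 (−0.93, SE 0.50, adjusted p = 0.658), whose 3 Tnfr1,2-/- arrays spread from 8.83 to 10.51.

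Receptors that sense microbes gave 5 calls of 28, all lower, with a median of −0.45. Tlr2, the receptor for bacterial lipoproteins, measured 5.93, 6.09 and 6.00 against 8.14, 8.43 and 8.29. The narrow spread gave this 4.85-fold change 1 of the smallest adjusted p values (7.20e-06). Clec4e, a lectin receptor also called Mincle, measured 4.03, 4.42 and 4.37 against 7.73, 8.97 and 7.80 and fell 14.9-fold, but its second probe set gave a log2 difference of −0.97. Marco, a scavenger receptor, fell 5.81-fold and the RNA sensor Ddx58 2.10-fold. The call of Marco was lost without Tnfr1,2-/- replicate 2 or Tnfr2-/- replicate 2 or 3 (adjusted p from 0.0598 to 0.0801).

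Enzymes of itaconate, nitric oxide, prostanoid and oxidant metabolism had a median of −1.23, and 7 of 20 were called lower. Acod1, which makes itaconate, measured 4.34, 4.75 and 4.11 against 9.44, 9.23 and 9.01. It had the smallest adjusted p of all genes (difference −4.83, SE 0.20, adjusted p = 7.24e-07), with the Tnfr1,2-/- arrays under the array median. Sod2, the mitochondrial superoxide dismutase, stayed bright in both groups, at 10.86, 11.51 and 11.57 against 13.21, 13.06 and 13.18, and fell 3.58-fold. Arg2, which competes for arginine, fell 5.74-fold, and Gch1, which makes the cofactor of nitric oxide synthase, fell 3.70-fold.

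Cytokines and growth factors of blood cells gave 5 calls of 21, all lower. Il23a, a subunit of interleukin 23, measured 5.06, 5.28 and 4.998 against 7.51, 6.79 and 6.98 and fell 3.95-fold. Csf1, the growth factor of macrophages, measured 9.15, 8.66 and 8.69 against 10.96, 10.44 and 10.50 and fell 3.48-fold. Lif fell 4.12-fold and Csf2, which was dim in both groups, 1.68-fold. The call of Lif was lost without Tnfr1,2-/- replicate 2 (adjusted p = 0.0596), and that of Csf2 was lost when any of 9 of the 12 arrays was left out, the exceptions being Tnfr1,2-/- replicate 1, Tnfr1-/- replicate 3 and Tnfr2-/- replicate 3 (adjusted p up to 0.211).

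Proteases and cell death genes added smaller groups. Of 23 metalloproteinases and inhibitors 6 were called lower and 1 higher. Adam17, the sheddase that releases TNF and cleaves both of its receptors from the cell surface, measured 9.83, 9.44 and 9.67 against 10.79, 10.82 and 10.66 (2.15-fold lower, adjusted p = 0.00112). Mmp3 fell 5.69-fold, Mmp9 3.91-fold and Adamts9 2.00-fold, while Timp3, an inhibitor of metalloproteinases including Adam17 and the gene called higher (named after its values were seen), measured 12.21, 12.05 and 12.20 against 10.82, 11.07 and 11.36 (adjusted p = 0.0201). Of 17 genes of apoptosis and inflammatory caspases 4 were called lower. These were Dram1 (4.61-fold), Casp12 (3.78-fold), Gsdmd, the pore protein of pyroptosis (2.91-fold), and Bid, which carries death receptor signals to mitochondria (2.90-fold).

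A further pair of large decreases belonged to no list. Slc2a6, a hexose transporter, measured 4.39, 4.46 and 3.68 against 9.26, 9.01 and 8.42 (26.4-fold lower, adjusted p = 9.97e-06). Gpr84, a receptor for fatty acids of medium length, measured 4.92, 5.02 and 4.85 against 9.50, 9.52 and 8.57 (19.3-fold lower, adjusted p = 9.97e-06). For both genes the Tnfr1,2-/- arrays were under the array median.

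Regulators of vessel tone, which act on smooth muscle and mesangial cells, held increases. Of 22 vasoactive and contractile regulators 7 were called higher and 1 lower, Agtr1a (named after its values were seen), the angiotensin receptor, which fell by 1.03. Vip, a peptide that relaxes vessels, measured 12.16, 12.17 and 12.82 in Tnfr1,2-/- glomeruli against 8.67, 8.36 and 7.89 in Tnfr2-/- glomeruli. It rose 16.9-fold (difference 4.08, SE 0.33, adjusted p = 6.19e-05), the largest increase. Rgs2, which limits signals of vasoconstrictor receptors, measured 11.35, 11.67 and 12.04 against 9.45, 9.18 and 9.54 and rose 4.92-fold. Npr3, the clearance receptor of natriuretic peptides, rose 3.10-fold. Abcc9, the regulatory subunit of the vascular potassium channel gated by ATP, measured 7.94, 8.33 and 8.99 against 6.63, 6.44 and 6.13 and rose 4.06-fold.

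Genes of vessel growth, Notch signalling and matrix were few among the calls. Vegfd, a growth factor of lymphatic vessels, measured 11.48, 11.23 and 11.10 against 9.11, 8.50 and 8.81 and rose 5.51-fold. Heyl, a target of Notch, measured 10.06, 9.33 and 9.25 against 7.64, 6.85 and 7.05 and rose 5.15-fold, while Nrp2, a co-receptor of this growth factor family, fell 3.26-fold. These were the calls among 26 genes of Notch and VEGF signalling. Of 23 matrix genes Col8a1, a collagen of vessel walls, rose 5.34-fold (0.54 on the log2 scale by its lowest probe set) and Fbln5, an elastic fibre protein, rose 2.30-fold. The call of Col8a1 was lost without Tnfr2-/- replicate 1 or 2 (adjusted p = 0.0939 and 0.112) and that of Fbln5 without wildtype replicate 2, any Tnfr1,2-/- array or Tnfr2-/- replicate 2 or 3 (adjusted p from 0.0552 to 0.162).

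Other large increases were spread over unrelated functions. Hopx, a homeodomain protein that does not bind DNA, measured 12.15, 12.39 and 11.88 against 9.74, 9.50 and 9.57 (5.79-fold higher, adjusted p = 9.52e-06). Nmb, the peptide neuromedin B, measured 10.09, 9.99 and 10.08 against 7.85, 7.73 and 7.03 (5.73-fold higher, adjusted p = 0.000210). Caln1, a calcium-binding protein, rose 6.58-fold, Krt13, a keratin, 5.06-fold, Tmem178 4.69-fold, and Ppp1r3c, which directs a phosphatase to glycogen, 4.17-fold. The smallest log2 difference among the probe sets of a gene was 0.12 for Caln1, 0.78 for Krt13 and 0.44 for Ppp1r3c, against 2.72, 2.34 and 2.06 for the probe sets tested. The call of Tmem178 was lost without Tnfr2-/- replicate 1 (adjusted p = 0.0535).

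Lists of cell cycle, immediate-early and housekeeping genes held no call, with medians of −0.08, −0.30 and −0.24. The members with the smallest adjusted p were Cdkn2c, an inhibitor of cyclin-dependent kinases (0.37, SE 0.17, adjusted p = 0.593), the transcription factor Myc (−0.63, SE 0.22, adjusted p = 0.347, called lower with array weights at 0.0418) and B2m, the light chain of MHC class I (−0.50, SE 0.24, adjusted p = 0.613).

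Marker lists of the cells a glomerular preparation can hold were read beside these changes. In bulk RNA, fewer cells of a type and less RNA per cell cannot be told apart. The summed linear level of the 13 podocyte markers ran from 34430 to 40097 in Tnfr1,2-/- glomeruli and from 20022 to 32720 in Tnfr2-/- glomeruli, a ratio of 1.40. These ranges did not overlap, which gives p = 0.1 in a two-sided exact permutation test, the smallest p that 3 against 3 arrays allow. No podocyte marker was called, and Synpo, an actin-binding protein of podocytes, had the smallest adjusted p (0.67, SE 0.24, adjusted p = 0.408).

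The 16 endothelial markers had a ratio of 1.03 and no call, the closest being Ehd3 (−0.56, adjusted p = 0.553). The 15 mesangial and smooth muscle markers had a ratio of 1.19 and no call, the closest being Notch3 (1.05, adjusted p = 0.269), and their sums overlapped. Of 8 parietal epithelial markers Wnt4, a signal of the epithelium, rose 1.91-fold (adjusted p = 0.00340), with a ratio of 1.11 for the list. Tubular markers had a ratio of 1.17 and no call, and the closest, Calb1, was dim in both groups (3.33, 3.48 and 3.40 against 3.26, 2.86 and 3.25).

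Markers of leukocytes gave 2 calls, both in the neutrophil list. The 16 macrophage markers summed to between 7193 and 9303 in Tnfr1,2-/- glomeruli and to between 7222 and 13153 in Tnfr2-/- glomeruli, a ratio of 0.849 with overlapping arrays. The difference was negative for 12 of them (median −0.47). None was called, and the closest by adjusted p, Mertk, a receptor for the uptake of dead cells, measured 11.51, 11.60 and 11.66 against 9.32, 10.54 and 10.94 (adjusted p = 0.316); with array weights it was called higher (adjusted p = 0.0381). The 11 neutrophil markers summed to between 215 and 279 against 315 to 400 (ratio 0.716, exact two-sided p = 0.1), with 10 of the 11 under the array median in both genotypes. The difference was negative for 4 of the 11 and the list's median was 0.11, so the sum and the median differ in sign. Of the 11, S100a8 and Camp, antimicrobial proteins of neutrophil granules and cytosol, fell 2.88-fold and 3.66-fold. Both calls were lost without Tnfr2-/- replicate 1 or 2, and that of Camp also without Tnfr1,2-/- replicate 1 or 3 (adjusted p up to 0.0631 and 0.0728). The 11 lymphocyte markers had a ratio of 0.984 and no call, the closest being Ms4a1, a marker of B cells (0.60, adjusted p = 0.635), which array weights called higher (1.21, adjusted p = 0.0255). The part of cell composition in the inflammatory differences was not tested.

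**Figure D4:**
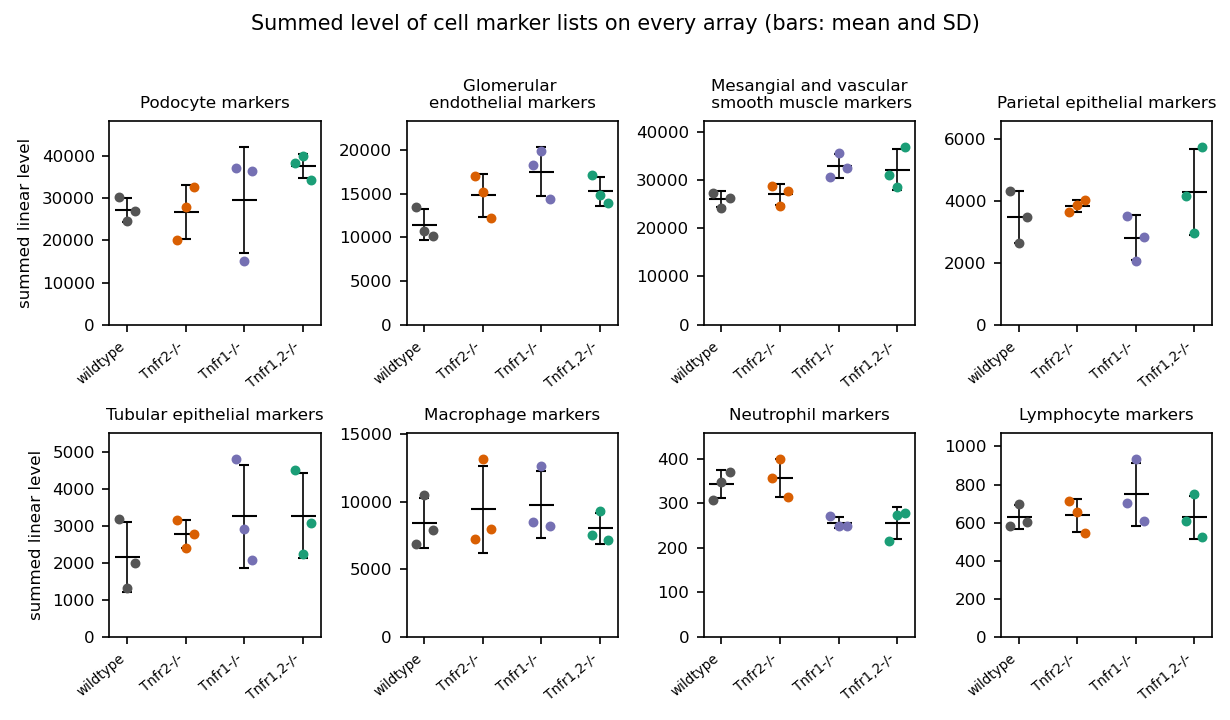
Summed linear level (y axis, from 0) of 8 cell marker lists on each array, 3 points per genotype, with mean and SD. Podocyte sums of Tnfr1,2-/- glomeruli lie above those of Tnfr2-/- glomeruli and neutrophil sums below them, while the other lists overlap; 1 Tnfr1-/- array is low for podocyte markers.

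Loss of Tnfr1 where Tnfr2 was present was the second comparison, made on arrays of its own. The targeted gene Tnfrsf1a measured 9.80, 10.18 and 9.24 in Tnfr1-/- and 10.70, 10.73 and 10.23 in wildtype glomeruli. All Tnfr1-/- arrays were below all wildtype arrays, replicate 2 by the least, but the difference of −0.82 was not called (1.76-fold, adjusted p = 0.217). Between Tnfr1-/- and wildtype glomeruli 131 genes were called lower (0.720% of those tested) and 88 higher (0.484%). With the replicate number as a block the counts were 240 and 197. They were 78 and 40 without wildtype replicate 2 and 87 and 69 without Tnfr1-/- replicate 1. Of the genes lower in this comparison, 115 were also called lower between Tnfr1,2-/- and Tnfr2-/-, which is 60.5% of the latter and 87.8% of the former. Of the genes higher, 47 were shared, 74.6% and 53.4% of the lists, and no gene was called in opposite directions. Over the 18193 genes, which are not independent replicates, the log2 differences of the 2 comparisons correlated with a Pearson r of 0.623 and a Spearman rho of 0.302.

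All 131 genes called lower on loss of Tnfr1 with Tnfr2 present were also lower with Tnfr2 absent, 128 of them by at least 1.5-fold, and the median differences were −1.59 and −1.74. All 88 genes called higher were also higher with Tnfr2 absent, but 66 passed 1.5-fold, and the medians were 1.32 (present) and 0.98 (absent). In each pair of medians here and below, the first is from the comparison that called the genes. A call required 1.5-fold there, so that choice can enlarge the first median. Read from the other side, the 190 genes called lower with Tnfr2 absent were all lower with Tnfr2 present, 169 by at least 1.5-fold, with medians of −1.56 (absent) and −1.30 (present). The 63 genes called higher with Tnfr2 absent were all higher with it present, 57 by at least 1.5-fold, with medians of 1.30 (absent) and 1.35 (present). Of all 18193 genes, 8763 were lower and 9430 higher with Tnfr2 absent, 903 and 692 of them by at least 1.5-fold. With Tnfr2 present 9296 were lower and 8897 higher, 441 and 487 of them by at least 1.5-fold. Ccl2 differed by −5.64 where Tnfr2 was absent and by −5.56 where it was present, Cfb by −5.29 and −5.07, and Vcam1 by −4.63 and −4.55. Icam1 differed by −4.05 and −3.34, Vip by 4.08 and 3.34, and Hopx by 2.53 and 2.59. Gbp2b was called where Tnfr2 was absent and not where it was present (−4.37, adjusted p = 0.279), and the wildtype mean in that value includes the array at 4.39.

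**Figure D5:**
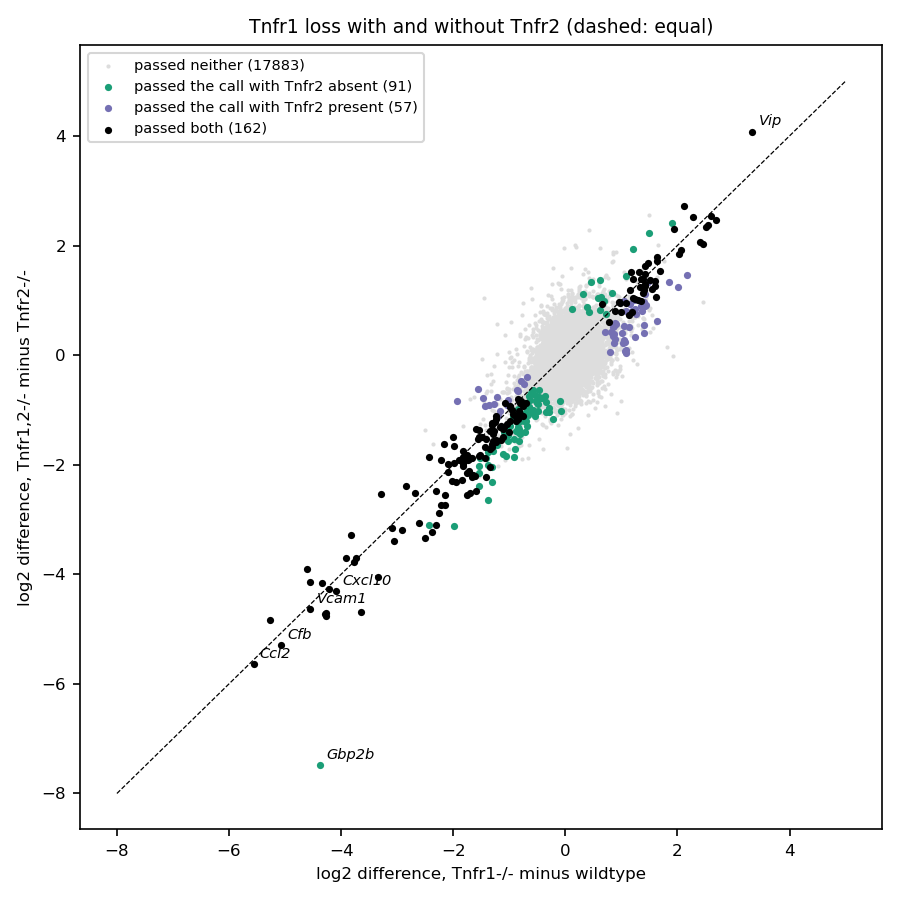
Log2 difference on loss of Tnfr1 with Tnfr2 present (x axis) against the difference with Tnfr2 absent (y axis), 1 point per gene, colours by which comparisons passed the call, dashed line at equality. Genes passing both calls (162) lie along the line from Ccl2 at the lower left to Vip at the upper right, and Gbp2b lies below it.

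Whether the effect of Tnfr1 differed with Tnfr2 was tested as the difference of the 2 differences. No gene was called by limma, the lowest adjusted p was 0.998, and 245 genes had an unadjusted p under 0.05. The 95% interval of this difference had a median half-width of 0.69 on the log2 scale for the called genes. This width is that of a single gene's unadjusted interval, and a call needed an adjusted p under 0.05, which values near 1 such as that of Prkch (−0.99) missed. For Ccl2 the difference was −0.08, with an interval from −1.18 to 1.01, and for Icam1 it was −0.71, from −1.49 to 0.06. For Gbp2b the interval ran from −7.32 to 1.09.

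The 5 genes with the smallest unadjusted p for that difference were Prkch, Ampd2, Stard9, Afap1l1 and Angpt2, and each had an adjusted p of 0.998. Angpt2, an antagonist of the endothelial receptor Tie2, measured 10.56, 10.99 and 10.78 in Tnfr1,2-/- glomeruli and 10.54, 10.54 and 10.52 in Tnfr2-/- glomeruli, a difference of 0.24. It measured 10.99, 11.39 and 10.99 in Tnfr1-/- and 10.03, 10.05 and 10.10 in wildtype glomeruli, a difference of 1.06. Prkch, a protein kinase C of endothelium and other cells, differed by 0.07 and by 1.06, Stard9 by 0.05 and 1.09, Afap1l1 by 0.05 and 0.79, and Ampd2, an AMP deaminase, by −0.70 and 0.25. The difference of Ampd2 between Tnfr1,2-/- and Tnfr2-/- was not called, but it was by SAM, a test by permutation of arrays, with array weights, with a replicate block and without Tnfr1-/- replicate 2 (adjusted p, or q for SAM, from 0.0155 to 0.0407).

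Genes beside the targeted locus were counted apart. The strain name marks an allele made in cells of a strain other than C57BL/6 and bred onto it, and the Tnfr2-/- genotype does not carry the Tnfrsf1a allele. Within 10 Mb of Tnfrsf1a on chromosome 6, 7 of 221 genes were called, all lower (3.17%), against 246 of 17924 genes of known position elsewhere (1.37%). The 7 were Zfp9 and Bid, the lectin receptors Clec4n and Clec4e, the complement proteases C1ra and C1s1, and Tapbpl, which lies 0.126 Mb from Tnfrsf1a and edits peptides on class I molecules. Tapbpl measured 6.38, 6.42 and 6.33 in Tnfr1,2-/- glomeruli against 7.86, 8.50 and 7.82 (3.21-fold lower, adjusted p = 0.00339), and 6.66, 6.91 and 6.47 in Tnfr1-/- against 8.15, 8.33 and 7.50 in wildtype glomeruli. The call of Clec4n (3.38-fold lower, adjusted p = 0.0405) was lost without wildtype replicate 2 or 3, any Tnfr1,2-/- array, Tnfr1-/- replicate 1, or Tnfr2-/- replicate 2 or 3 (adjusted p from 0.0536 to 0.125). Receptor loss and flanking sequence of the targeted allele cannot be told apart for these genes.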

How the data were processed

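Total RNA of isolated glomeruli was hybridized to Affymetrix whole-genome mouse arrays, 12 in all. The authors normalized all arrays together by the robust multichip average (RMA) and deposited log2 values per probe set, which were used as they are. The platform annotation gave 34945 of 45101 probe sets a single symbol. Linear models over 4 genotypes were fitted with limma 3.58.1 in R 4.3.3 (lmFit, then eBayes with no trend; residual degrees of freedom 8), with Benjamini-Hochberg adjustment over 18193 genes. The 3 preparations of a genotype limit the precision, and no read depth applies. The members and lists were chosen with earlier results of these data known.

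Named were Tnfrsf1a, Tnfrsf1b and Rab6b; the 15 largest called decreases and 12 largest increases whose arrays did not overlap; up to 4 called members of a list with the smallest adjusted p, or else the member with the smallest; the 5 smallest p for the difference between comparisons; and up to 6 called genes within 10 Mb of Tnfrsf1a. Alternatives covered the choice and filter of probe sets, the statistic of SAM rewritten from its description, the arrays fitted, weights, scaling, thresholds, blocks and each array left out. For replicate numbers, deviations of same-numbered Tnfr1-/- and wildtype arrays correlated at 0.62, 0.34 and 0.72. Those arrays also shared an array set, and arrays of different number were not compared, so pairing was not established. Comparisons of the authors' own and unstimulated glomeruli were not used here.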

Additional observations from a re-analysis of the deposited data

Results flagged for a closer look

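Probe sets without a single gene symbol lay outside the comparison by gene and were tested apart. Of 10092 such probe sets, 25 differed between Tnfr1,2-/- and Tnfr2-/- glomeruli by the same rule, 23 lower and 2 higher. The probe set 1436003_at measured 4.21, 3.97 and 4.59 in Tnfr1,2-/- and 8.61, 8.66 and 8.75 in Tnfr2-/- glomeruli (difference −4.42, SE 0.20, adjusted p = 7.03e-06 in limma), and 1440084_at differed by −3.45. The 2 that were higher were 1418778_at, at 8.87, 9.32 and 8.52 against 6.29, 6.54 and 6.45 (difference 2.48, adjusted p = 0.000204), and 1455361_at (1.13). The platform annotation used here gives none of them a single gene symbol. The paper's own gene list places 1436003_at under Vcam1, a gene already reported above, and 1455361_at under Dgkb.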

How the results depend on the processing

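Of the 190 genes lower and 63 higher in Tnfr1,2-/- glomeruli, none turned direction with a call under the 28 alternatives. Where an alternative kept the probe sets and used a subset of these arrays, their direction could not turn, since their arrays did not overlap. The counts, lower and higher, were 452 and 307 with array weights, 294 and 110 with the array set as a block, 226 and 98 by SAM, 130 and 38 from the 6 arrays alone, 78 and 12 within the first array set, 64 and 17 within the second, and 119 to 197 and 28 to 84 with 1 array left out. Between Tnfr1-/- and wildtype they were 198 and 158, 258 and 212, 164 and 116, 60 and 37, 85 and 63, 29 and 3, and 78 to 147 and 40 to 99. Genes shared by both comparisons numbered 178 and 94, 206 and 83, 48 and 17, 56 and 12, 28 and 3, and 71 to 118 and 22 to 48 in that order without SAM, which kept both counts within 1.5 times.

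With a replicate block 416 genes were lower and 223 higher between Tnfr1,2-/- and Tnfr2-/-, 240 and 197 between Tnfr1-/- and wildtype, and 198 and 99 were shared. All 190 and 63 genes stayed called. Deviations of same-numbered Tnfr1,2-/- and Tnfr2-/- arrays correlated at 0.56, −0.005 and 0.51, and Tnfr1,2-/- replicate 2 correlated best with Tnfr2-/- replicate 3 (0.33), so the numbers were not taken as pairs.

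The difference between the comparisons gave 0 calls under every alternative that tests it (0 to 0 with 1 array left out); SAM and the 6-array fits do not test it. Median centring and cyclic loess moved the median of all genes by less than 0.02 and left 185 and 63, and 191 and 58, genes called. Within 5 and 20 Mb of Tnfrsf1a 6 and 10 genes were called. Of 85 named called genes 67 kept their call whichever array was left out and 35 under every alternative that measured them, while 8 lost it with the mean of probe sets. Of the named genes not called, array weights called Ampd2, Myc, Mertk and Ms4a1, and SAM and the replicate block called Ampd2. Differences that were not called changed sign for Prkch with all probe sets (−0.52) or their mean (−0.23), for Stard9 with array weights (−0.032) or within the second array set (−0.035), for Afap1l1 within the first array set (−0.17), and with 1 array left out for Tnfrsf1b (−0.037 to 0.32), Prkch (−0.022 to 0.15), Stard9 (−0.057 to 0.12) and Afap1l1 (−0.027 to 0.12). The lowest value came without Tnfr2-/- replicate 2 for Tnfrsf1b, Prkch and Stard9 and without Tnfr2-/- replicate 3 for Afap1l1. The cause was not tested.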

Other observations

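Called genes outside the lists, named after their values were seen, included several receptors and carriers. Slc15a3, a lysosomal carrier of histidine and peptides, Map2k6, a kinase that activates p38, and Xdh, xanthine dehydrogenase, differed between Tnfr1,2-/- and Tnfr2-/- glomeruli by −3.24, −2.88 and −2.64 on the log2 scale. Cd274, the checkpoint ligand PD-L1, differed by −1.21, and Irak3, a brake on Toll-like receptor signals, by −1.40. Slc7a2 and Slc7a11, carriers of cationic amino acids and of cystine, differed by −1.66 and −1.53.

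Rab4a, a small GTPase of endosome recycling, was called higher in Tnfr1,2-/- glomeruli (9.40, 9.78 and 9.47 against 8.36, 7.93 and 8.25, difference 1.37, adjusted p = 0.00102 in limma), and its second probe set differed by 1.24. Its group means were 9.10 in wildtype and 9.72 in Tnfr1-/- glomeruli, so that Tnfr2-/- was the lowest genotype. Bmx, a kinase of arterial endothelium, Gucy1a2, a subunit of the nitric oxide receptor, and Ebf2, a transcription factor of pericytes and fat cells, were called higher by 1.92, 1.84 and 1.93.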
